A study of Mus musculus with 33 samples.

Results

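Natural killer (NK) cells were selected from single-cell RNA libraries of 4 mouse tissues that carried disseminated tumour cells, and 1184 of 55366 kept cells (2.14%) met the definition. A cell was taken as an NK cell when it held at least 1 unique molecular identifier (UMI, a tag that counts an RNA molecule once) of at least 3 of 6 genes (Ncr1, Klrb1c, Gzma, Prf1, Eomes and Klre1) and none of the T cell receptor complex genes Cd3d, Cd3e and Cd3g. Kept cells had at least 500 UMIs and 200 genes and at most 15% mitochondrial UMIs.

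The study mapped which host cells sit next to metastatic cells. Cells to be compared came from bone (femurs and tibias), brain, liver and lung after intracardiac injection, where the tumour cells had tagged their neighbours with biotin during overnight substrate labelling (the SAMENT method, a niche labelling by sortase A on the tumour cell surface), and each tissue was sorted into biotin-negative and biotin-positive cells. Each of the 8 groups (tissue by sort) had 4 samples, 32 in all, numbered replicate 1 to 4, and 1 further pooled library held bone cells from iia-injection samples of both sorts. None of the groups is labelled as tumour-free, so the biotin-negative cells of the same tissue are the only comparator. The labels used here give no strain, age, sex or tumour line, and do not say that samples of a group are separate animals, so p-values measure only the spread between these samples. Samples held 94 to 3505 kept cells and 497940 to 44874529 UMIs. Samples with the same replicate number shared 0 cell barcodes in 112 pairs, samples with different numbers shared 325 barcodes over 384 pairs (at most 7 in a pair), and no barcode was shared between NK cells.

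NK cells are innate lymphocytes that kill stressed or transformed cells without prior sensitisation, by releasing perforin and granzymes from cytotoxic granules, and that secrete interferon gamma and chemokines. In mice they mature from CD27-high to CD11b-high cells, gaining killing capacity and receptors such as Klrg1 and S1pr5 on the way. Type 1 innate lymphoid cells (ILC1) are close relatives that share Ncr1 (NKp46) and Klrb1c (NK1.1) but reside in tissues, classically the liver, express Itga1 (CD49a), Cxcr6 and Tnfsf10 (TRAIL), and lack Eomes. Because the definition rests on shared genes, it admits ILC1 as well as NK cells.

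Genes that the definition did not use were examined by the number of markers. Of the 273 cells with all 6 markers, 99.3% had a UMI of Nkg7, a granule membrane protein of cytotoxic lymphocytes, 92.3% of Klrd1 (CD94) and 86.8% of Il2rb, the receptor subunit through which IL-15 acts. Those cells all hold Eomes by definition, so they say nothing on ILC1. The remaining NK cells comprised 148 with 3 markers, 289 with 4 and 474 with 5. In the cells with exactly 3 markers the shares were 98.0% for Nkg7, 83.8% for Klrd1 and 87.2% for Il2rb. Just outside the threshold lay 95 cells with 2 markers and no Cd3 UMI, of which 86.3% had a UMI of Nkg7, 74.7% of Klrd1 and 73.7% of Il2rb. The level of Nkg7 was 751 CPM (UMIs scaled to a total of 1000000) in these cells and 1875 CPM in the cells with exactly 3 markers. A further 324 cells had at least 3 markers and a Cd3 UMI and were left out, 39 of them for Cd3d alone. Among NK cells, 48 had a UMI of the T cell receptor gene Trac and 14 had at least 3 UMIs of the B cell genes Cd79a, Cd79b and Ms4a1. S100a8, a neutrophil gene, stood at 1289, 23090 and 57283 CPM in the NK cells of biotin-negative bone samples 1 to 3. Of the NK cells of that group, 9.92% were among the 5% highest doublet scores. Free RNA and doublets cannot be told apart in these values.

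The abundance of NK cells near and away from tumour cells was compared within each tissue. The biotin-negative sort held 1090 NK cells among 38209 and the positive sort 94 among 17157. In liver, NK cells made up 3.77, 2.17, 4.37 and 3.39% of kept cells in biotin-negative samples 1 to 4, and 0.491, 0, 0.404 and 0% in the positive samples. The 2 liver groups did not overlap, and a count of 0 allows a share of up to 0.290% in positive sample 2 and 3.19% in positive sample 4, which held only 94 cells. The liver means were 3.42 ± 0.931% (SD, n = 4) and 0.224 ± 0.261% (n = 4), with an exact two-sided permutation p of 0.0286, the smallest that 4 against 4 samples can give, and an adjusted p of 0.114 over the 4 tissues (Benjamini-Hochberg). Negative sample 3 is counted here by the definition, although its cells carry ILC1 genes (described with the liver genes), and without it the difference was -2.89 percentage points. The exact permutation p was 0.0571 whichever liver sample was left out, so that p reflects the number of samples. The liver difference does not pass the adjusted threshold, which 1 tissue at the smallest possible p could not pass alone.

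In lung the biotin-negative samples held 14.2, 0.715, 2.43 and 2.34% NK cells and the positive samples 0.911, 0.295, 0.329 and 0.295%. Replicate 1 stood apart: its 393 NK cells were 73.2% of all NK cells of the lung negative sort. The groups overlapped only through negative sample 2 and positive sample 1 (4.93 ± 6.25% against 0.457 ± 0.303%, n = 4 each, exact permutation p = 0.0571, adjusted p = 0.114), and without negative sample 1 the difference shrank from 4.47 to 1.37 percentage points. In bone the shares were 2.70, 0.856, 0.450 and 0.228% in negative and 0.747, 0.685, 0 and 0.347% in positive samples (exact permutation p = 0.429, adjusted p = 0.429), and the ranges overlapped. In brain they were 2.78, 0.824, 1.46 and 1.93% in negative and 0.725, 1.04, 1.61 and 0.448% in positive samples (exact permutation p = 0.171, adjusted p = 0.229), again with overlap. Among same-numbered samples the positive one had the lower share in 4 of 4 pairs of liver and of lung, 3 of 4 of bone and 2 of 4 of brain. Within a sort, fewer NK cells and more cells of other types cannot be told apart in these shares.

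**Figure D1:**
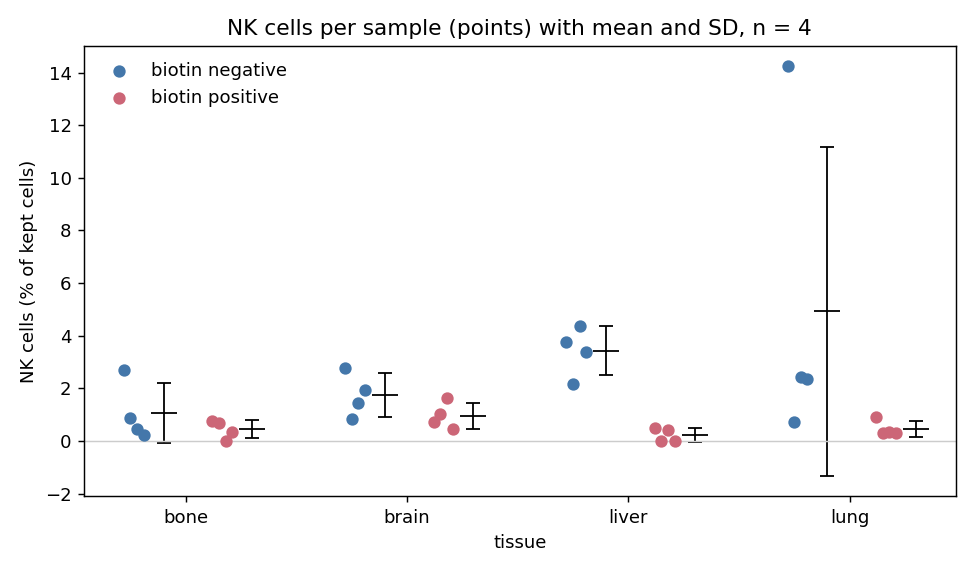
NK cells as a percent of kept cells (vertical axis) in each sample of the 4 tissues, for the biotin-negative and biotin-positive sorts; points are samples, and the line and bars beside them are the mean and SD of 4 samples, whose lower end falls under 0 where the SD exceeds the mean. The liver groups do not overlap, and the highest lung point is negative sample 1 at 14.2%.

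Counted against T cells rather than all cells, the liver pattern was similar and the lung one was not. NK cells per 100 Cd3 cells (at least 2 UMIs of Cd3d, Cd3e and Cd3g) averaged 37.8 ± 10.2 in liver negative and 5.33 ± 6.62 in liver positive samples (n = 4 each, exact permutation p = 0.0286, adjusted p = 0.114). In lung the values were 21.3 ± 20.3 and 16.7 ± 12.5 (exact permutation p = 0.771, adjusted p = 0.771), and without negative sample 1 (51.6) the difference turned from -4.62 to 5.50 (exact permutation p = 0.514). The values were in brain 12.8 ± 3.48 and 10.6 ± 9.03 (p = 0.657 by the same exact test, adjusted p = 0.771), and in bone 9.93 ± 5.90 and 7.27 ± 10.3 (p = 0.686 by the same exact test, adjusted p = 0.771). The Cd3 count carries a limit: among cells with at least 50 S100a8 UMIs, 34.5, 6.99, 2.63 and 26.5% held a Cd3d UMI in replicates 1 to 4, against at most 1.95% for Cd3e and 2.33% for Cd3g, and such cells made up 88.9% of the Cd3 cells of bone negative sample 4. With T cells taken by Cd3e, Cd3g and Trac, a choice made after seeing the data, the bone difference (positive minus negative) turned from -2.66 to 0.16 NK cells per 100 T cells (exact permutation p = 1.0), and the liver difference was -41.0 (exact permutation p = 0.0286, adjusted p = 0.114).

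Gene expression of NK cells was then compared between tissues in the biotin-negative sort, summing the UMIs of the NK cells of each sample with at least 10 of them (15 of 16 samples; bone sample 4 had 8). edgeR's quasi-likelihood test called 0 of 3519 genes (0%) at an adjusted p under 0.05 in each of the 6 tissue pairs and across any tissue. At an unadjusted p under 0.05 the counts were 178 for liver against bone, 91 for liver against brain, 184 for liver against lung, 201 for lung against bone, 106 for lung against brain and 140 for brain against bone. DESeq2 called 2, 0, 1, 1, 0 and 2 genes in the same order. Without bone sample 1, which held 80 NK cells and had the lowest S100a8 level of the bone samples in the fit, edgeR called 10 genes for liver, 16 for lung and 15 for brain against bone, and without liver sample 2 it called 1 for liver against lung. In simulated data of the liver and lung comparison the edgeR test recovered 100% of genes changed by 2 on the log2 scale and 30.3% of those changed by 1. The simulation gave all genes the same spread, so these rates need not hold for the real fit. There, Hes1 differed by -2.99 between liver and lung at an edgeR adjusted p of 0.171. Since edgeR called no gene, the genes named below were chosen after their values were seen, and are given as values.

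The means of the maturation genes did not share a single order of tissues. Klrg1, an inhibitory receptor of terminally mature NK cells, was at 9.59 ± 16.6 CPM in bone (SD, n = 3), 89.2 ± 56.0 in brain, 79.2 ± 78.8 in liver and 138 ± 32.8 in lung (n = 4 each). S1pr5, which lets mature NK cells leave the marrow, was at 28.3 ± 14.3 CPM in bone and 65.9 ± 18.7 in lung. Klra8, a receptor of mature NK cells, was at 352 ± 203 CPM in lung, 369 ± 121 in bone, 403 ± 308 in liver and 415 ± 195 in brain, within the spread of the samples. Over the 12 mature NK genes the median lung minus bone difference was 0.97 on the log2 scale, against 0.00 for all 3519 genes, and over the 12 immature (CD27-high) genes it was -0.82. Emb, an immature-stage surface protein, stood at 377 ± 190 CPM in bone and 215 ± 50.7 in lung, and Cd27 at 86.0 ± 15.2 and 36.2 ± 15.5. No gene of either list passed the test in any tissue pair, as was so for all 3519 genes. The neutrophil marker list moved beside these values, with a median lung minus bone difference of -2.38, and its part in them was not tested.

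No killing or signalling gene passed the edgeR test in a tissue pair, as was so for all 3519 genes. Gzmb, the granzyme that triggers target cell apoptosis, averaged 1157 ± 452 CPM in lung, 866 ± 505 in liver and 656 ± 367 in brain (n = 4 each), and 371 ± 178 CPM in bone (n = 3). The bone and lung samples did not overlap, since bone ranged up to 533 CPM and lung down to 601, as was so for 6.82% of all 3519 genes in this pair. Serpinb9, the inhibitor that shields cytotoxic cells from their own granzyme B, stood at 187 ± 123 CPM in bone and 641 ± 199 in lung (1.59 higher on the log2 scale, edgeR adjusted p = 0.415). Ifng was at 280 ± 226 CPM in lung, 246 ± 240 in liver, 204 ± 73.4 in brain and 71.9 ± 47.3 in bone. Xcl1, a chemokine that draws dendritic cells, averaged 424 ± 331 CPM in lung, 493 ± 390 in bone, 639 ± 693 in brain and 1582 ± 2543 in liver. The liver means of these genes were raised by negative sample 3, which was at 602 CPM for Ifng, 5391 for Xcl1 and 1622 for Gzmb, against at most 159, 463 and 651 CPM in the other 3 liver samples. The median lung minus bone difference was 0.84 over the 13 tested cytotoxic genes and 1.15 over the 7 tested cytokine genes, and the liver minus bone median of the cytokine genes was 1.32. The cytotoxic list holds Gzma and Prf1, which are genes of the definition, so its median is partly set by the selection. Of the 8 tested cell cycle genes, 0 passed in any pair, as was so for all 3519 genes. Mki67, a proliferation marker, averaged 41.8 ± 56.5 CPM in lung, 29.1 ± 30.2 in liver, 58.5 ± 117 in brain and 154 ± 73.4 in bone, and the 8 genes had a median of -1.61 for lung minus bone and -2.02 for liver minus bone. The neutrophil markers had medians of -2.38 and -2.63 in the same pairs, and their part in these values was not tested.

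**Figure D2:**
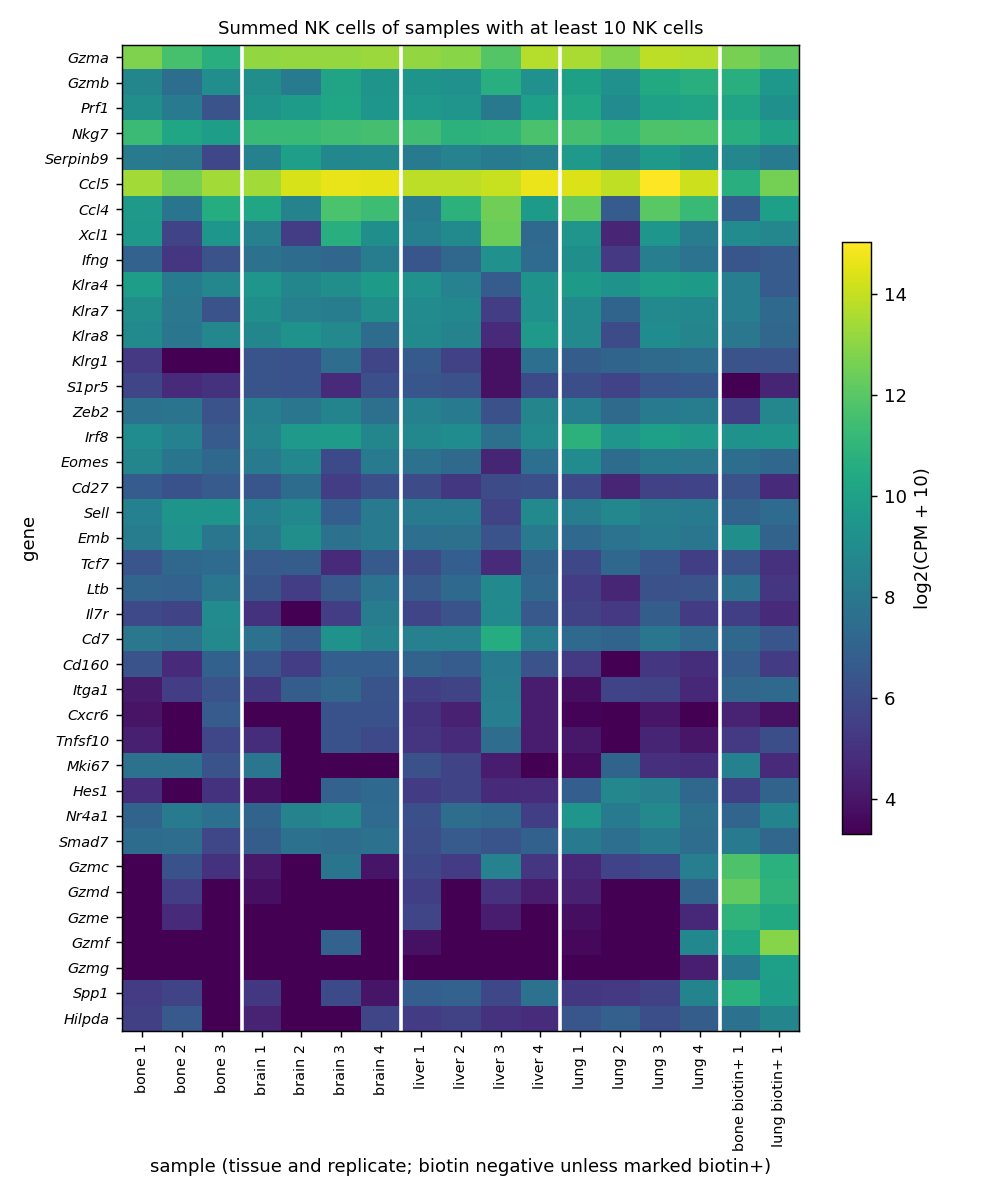
Heat map of selected genes (rows) in the summed NK cells of each sample with at least 10 NK cells (columns, with the 2 biotin-positive samples at the right), coloured by log2(CPM + 10). Klrg1 is dark in the bone samples, liver sample 3 is bright in Xcl1, Itga1 and Cxcr6 and dark in Eomes, and each of the Gzmc to Gzmg rows has its 2 highest values in the biotin-positive columns.

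Between liver and lung the smallest p was that of Cd160, a receptor of NK cells and ILC1 that binds major histocompatibility class I. It was at 121, 96.9, 284 and 70.5 CPM in liver samples 1 to 4 and at 29.8, 0, 26.4 and 19.0 CPM in lung samples 1 to 4. The 2 sets did not overlap, as was so for 3.07% of all 3519 genes, the difference was 2.61 on the log2 scale (SE 0.49), and the edgeR adjusted p was 0.0812 (DESeq2 adjusted p = 0.0107). The same adjusted p of 0.0812 by edgeR was found for Smad7, a feedback inhibitor of TGF-beta signalling (84.4 ± 24.2 CPM in liver and 227 ± 58.8 in lung), Ubald2 (170 ± 22.4 and 406 ± 143) and Rbbp8, a DNA end-resection factor (19.7 ± 11.2 and 75.7 ± 28.3). Tgif1, a repressor in the same TGF-beta pathway, stood at 32.2 ± 16 CPM in liver and 145 ± 72.9 in lung (adjusted p = 0.171 by edgeR), and Hes1, a Notch target, at 27.3 ± 12.4 and 249 ± 150 CPM. With a term for replicate number, an alternative fit, the edgeR adjusted p was 0.0111 for both Cd160 and Tgif1.

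Within the liver, 1 sample accounted for most of the ILC1 signal. Itga1 was at 35.6, 43.0, 305 and 8.81 CPM in liver negative samples 1 to 4, Cxcr6 at 23.0, 10.8, 314 and 8.81, Tnfsf10 at 25.1, 16.1, 172 and 8.81, and Xcl1 at 324, 463, 5391 and 150. Sample 3 was the highest in each, by more than the spread of the other samples. The same sample was lowest in Eomes, the factor that separates NK cells from ILC1, with 195, 156, 12.9 and 185 CPM, and in the receptors Klra8 (458, 371, 17.2 and 767 CPM) and Klra7 (492, 436, 34.4 and 608 CPM).

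Counted per cell, 55 of the 68 selected cells of that sample (80.9%, Wilson 95% interval 70.0 to 88.5%) had a UMI of Itga1, Cxcr6 or Tnfsf10, against 16 of 127, 8 of 54 and 2 of 43 in the other liver negative samples. With every cell thinned to 1500 UMIs the share was 64.1% in sample 3 and 5.13 to 8.89% in the others, and it was 2.18% in the B cells of sample 3, which should lack these genes. Eomes was found in 2 of the 68 cells (2.94%) and in 31.5 to 40.9% of the cells of the other 3 samples. The 13 cells of sample 3 without any of the 3 genes looked alike in other respects: Xcl1 was present in 84.6% of them and in 94.5% of the 55, and the receptor Il7r in 61.5 and 60.0%. Eomes is a gene of the definition, so its shares among selected cells are a description. For sample 3 of the liver, the cells are described by their leading genes (Xcl1, Itga1, Cxcr6 and little Eomes) and not by the NK label. B cell RNA was also high in that sample, with the immunoglobulin gene Igkc at 9956 CPM in its selected cells against 52.3, 5.38 and 106 CPM in the others, and its part in these values was not tested. Across the tissues edgeR called 29 of 4040 genes (0.718%) by replicate number, with Itga1 and Cxcr6 among them. Intervals on shares of cells cover counting error only.

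**Figure D3:**
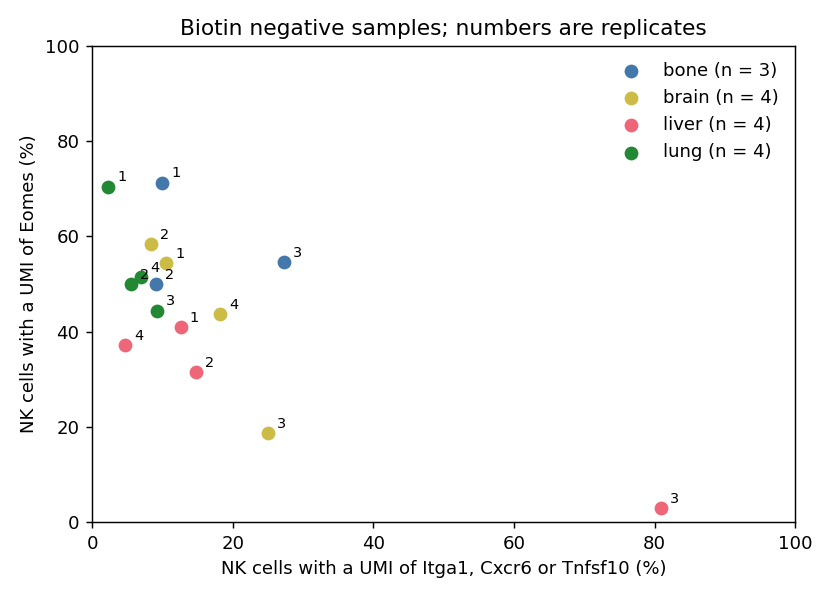
Percent of NK cells with a UMI of Itga1, Cxcr6 or Tnfsf10 (horizontal axis) against percent with a UMI of Eomes (vertical axis), with 1 point per biotin-negative sample of at least 10 NK cells, coloured by tissue and numbered by replicate. Liver sample 3 lies apart, at 80.9% for the ILC1 genes and 2.94% for Eomes.

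The granzyme genes Gzmc, Gzmd, Gzme, Gzmf and Gzmg had the largest fitted differences between the sorts, of which Gzmc alone entered the test independently of the positive samples. In mice these serine proteases lie beside Gzmb in a single cluster on chromosome 14, all on the minus strand, and strongly activated killer cells express them. In the GENCODE annotation of GRCm38, Gzme lies at chr14:56117626-56120625, Gzmd at chr14:56129556-56132608, Gzmg at chr14:56156582-56159579, Gzmf at chr14:56205263-56211417, Gzmc at chr14:56231441-56234656 and Gzmb at chr14:56258838-56262260, so that the genes from Gzme to Gzmc span 117 kb. Gzma, a gene of the definition, is on chromosome 13 (chr13:113093825-113100981). Over the last 400 transcript bases, Gzmd, Gzme, Gzmf and Gzmg are 82.2 to 87.1% identical between pairs, so their reads can be split between copies and the order among these genes is uncertain. Gzmc is 52.3 to 54.3% identical to each of them, about as far as Gzma is (50.7 to 52.9% to Gzmc to Gzmg). The promoters of Gzmc and Gzmf are shown as examples of these genes, with that of Gzmb for comparison. They are RefSeq sequences of GRCm38.p6, minus strand, 250 bases before to 50 after the gene start, at chr14:56234608-56234907 for Gzmc, chr14:56211358-56211657 for Gzmf and chr14:56262285-56262584 for Gzmb, with a RUNX motif (TGTGGTT on either strand) in capitals.
Gzmc: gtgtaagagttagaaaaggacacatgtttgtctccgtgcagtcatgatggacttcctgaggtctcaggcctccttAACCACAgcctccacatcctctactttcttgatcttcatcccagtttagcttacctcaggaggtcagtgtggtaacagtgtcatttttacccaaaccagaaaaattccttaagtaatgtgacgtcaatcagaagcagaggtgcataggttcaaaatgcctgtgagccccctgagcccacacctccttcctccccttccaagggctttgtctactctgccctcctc
Gzmf: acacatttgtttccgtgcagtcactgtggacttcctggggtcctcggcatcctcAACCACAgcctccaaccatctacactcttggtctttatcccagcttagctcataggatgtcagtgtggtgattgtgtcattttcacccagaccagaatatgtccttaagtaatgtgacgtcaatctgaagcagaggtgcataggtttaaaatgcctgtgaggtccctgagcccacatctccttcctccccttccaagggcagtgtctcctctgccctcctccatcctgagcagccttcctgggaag
Gzmb: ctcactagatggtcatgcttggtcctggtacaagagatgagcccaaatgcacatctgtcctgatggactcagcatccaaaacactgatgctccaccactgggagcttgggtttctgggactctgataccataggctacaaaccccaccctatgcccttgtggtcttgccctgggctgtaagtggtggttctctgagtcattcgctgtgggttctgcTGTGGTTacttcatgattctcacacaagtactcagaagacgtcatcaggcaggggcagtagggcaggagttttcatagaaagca
The motif begins 175 bases before the start in Gzmc, 196 in Gzmf and 34 in Gzmb. It was found in each of the 7 promoters examined (Gzma, Gzmb and Gzmc to Gzmg) and in 5.27% of 32817 promoters. An AP-1 motif (TGACTCA or TGAGTCA, in 5.20% of promoters) was found in Gzmb alone, a T-box motif (TCACACC, 3.98%) in none, an NFAT motif (TGGAAA, 21.4%) in Gzma alone and a STAT motif (TTCNNNGAA, 8.29%) in Gzmb alone. Promoters of Gzmc to Gzmg were 74.6 to 93.4% identical to each other and 46.8 to 51.7% identical to that of Gzmb. These matches are descriptions of letters and show no binding.

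NK cells of the biotin-positive and biotin-negative sorts were compared in 17 samples with at least 10 NK cells, of which only 2 were positive: bone sample 1 with 15 cells and lung sample 1 with 28. With tissue in the model, edgeR called 16 of 4200 genes (0.381%), 14 higher (0.333%) and 2 lower (0.0476%) in the positive sort. Of the 14, 8 passed the filter on low counts only once the positive samples were added, among them Gzmd, Gzme, Gzmf and Gzmg. Such genes had to differ, so their values are a description with no p. Over the 3519 genes that pass the filter among the negative samples alone, a choice made after seeing the data, edgeR called 8 (0.227%), 6 higher and 2 lower, all of them among the 16. Gzmc was among them, at 3487 and 1800 CPM in the positive samples against at most 357 CPM in the negative ones (5.68 on the log2 scale, SE 1.08, edgeR adjusted p = 0.0174, and 0.0277 over the 3519 genes). Gzmg was at 284 and 983 CPM in the positive samples and at most 9.49 CPM in the negative ones. Gzme was at 1989 and 1380 CPM against at most 43.9, Gzmd at 4826 and 1987 against at most 123, and Gzmf at 1309 and 7810 against at most 440. Gzmc was the only gene of the cytotoxic list called (Gzmd to Gzmg are not on it). The count rests on both positive samples: without either, 1 is left, and the spread then comes from the negative samples alone. With each sample left out in turn, the Gzmc difference ranged from 4.02 to 7.54. The count of called genes was 1 (Pecam1, 2.35, SE 0.40, adjusted p = 0.0328 by edgeR) without cells holding at least 10 UMIs of the 5 granzymes. It was 0 without cells that had a Trac UMI, and 0 with T cells excluded by Cd3e, Cd3g and Trac in place of the Cd3 genes.

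Outside the granzymes, Spp1 (osteopontin) was higher by 4.46 (SE 0.76, edgeR adjusted p = 0.00784), at 1764 and 935 CPM in the NK cells against at most 383 CPM in negative samples. In the other kept cells of the same positive samples Spp1 stood at 135 and 955 CPM, so the lung value is no higher than its surroundings. Hilpda, a hypoxia-inducible lipid droplet protein, rose by 2.27 (195 and 393 CPM, adjusted p = 0.00933 by edgeR), and stood at 53.4 and 491 CPM in the other cells. Pecam1, an adhesion molecule best known on endothelium, rose by 2.06 (53.3 and 271 CPM, adjusted p = 0.0174 by edgeR). Its negative maximum was 72.6 CPM, so the bone value lay within the negative range, and without lung positive sample 1 its difference was 0.43. Ccl5, a chemokine stored by mature NK cells, fell by 2.05 (SE 0.40, adjusted p = 0.0177 by edgeR): it was at 1605 and 6189 CPM against 6339 to 33698 CPM, below every negative sample. With each sample left out in turn, the difference ranged from 2.15 to 2.48 for Hilpda and from -2.33 to -1.80 for Ccl5. Fits without either positive sample hold 1 positive sample, so no p is given for them. Macrophage markers were also measured: the summed level of the 12 listed markers was 88.8 CPM in bone positive sample 1, 2197 in lung positive sample 1 and 0 to 1215 CPM in negative samples. Of the 12, 7 were tested and 0 were called, against 0.381% of all genes. The 7 had a median positive minus negative difference of 3.28 on the log2 scale, against 0.002 for all genes. Only 3 of the 12 pass the low-count filter in the tissue fit of negative samples, so this median is partly fixed by the filter. The part of the macrophage markers in the other values was not tested.

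The granzyme signal was carried by few cells. Gzmc to Gzmg were chosen on this contrast, so the cell counts are a description. At least 10 UMIs of the 5 genes were found in 9 of 94 positive NK cells (9.57%, Wilson 95% interval 5.12 to 17.2%), spread over 6 of the 13 positive samples with NK cells, and in 7 of 1090 negative ones (0.642%, interval 0.311 to 1.32%), from 5 of 16 samples. Bone had 3 of 25 positive and 0 of 121 negative cells, brain 2 of 19 and 1 of 140, liver 2 of 9 and 4 of 292, and lung 2 of 41 and 2 of 537. With cells thinned to 1500 UMIs, 12.2% of 90 positive and 3.16% of 1043 negative NK cells had a UMI of these genes, against 0.116 and 0.196% of B cells. The 16 cells held 6601 of the 6721 UMIs of the genes in NK cells (98.2%).

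A bone positive cell held 1772 of them (518 of Gzmc, 794 of Gzmd, 331 of Gzme, 81 of Gzmf and 48 of Gzmg), which is 5.60% of its 31664 UMIs. A lung positive cell held 3195 (412, 455, 316, 1787 and 225 in the same order), 8.53% of its 37468 UMIs. These 2 cells gave 88.2 and 99.97% of the granzyme UMIs of the 2 positive samples in the fit, so the gene test rests on them. Gzmd had the most UMIs in the bone cell and Gzmf in the lung cell, an order that is uncertain since reads can be split between these copies. The deepest negative cell with the genes, in lung sample 4, held 284 of 28660 UMIs. These cells were deeply counted, with a median of 25983 UMIs in the 9 positive cells against 4627 in the other positive NK cells, and 10399 against 2676 in the negative sort.

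The 9 positive cells are set here beside the other 85 positive NK cells, with no test. Their median Gzmb level was 2191 CPM against 181, Gzma 1061 against 4063 and Ccl5 0 against 7861, with a Ccl5 UMI in 4 of 9 against 84 of 85 cells. Itga1 had a UMI in 9 of 9 against 19 of 85, and Spp1 in 8 of 9 against 21 of 85. The 9 cells were counted more deeply, and the part of depth in these shares was not tested. None of the 9 was among the 5% highest doublet scores, 1 had a UMI of the macrophage gene C1qa and 3 had one of Trac. Outside the definition, 15 of 54182 cells had at least 10 UMIs of the genes, 8 of which carried at least 3 NK markers and a Cd3 UMI, and 62.1% of the 10822 UMIs in all kept cells lay in NK cells.

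**Figure D4:**
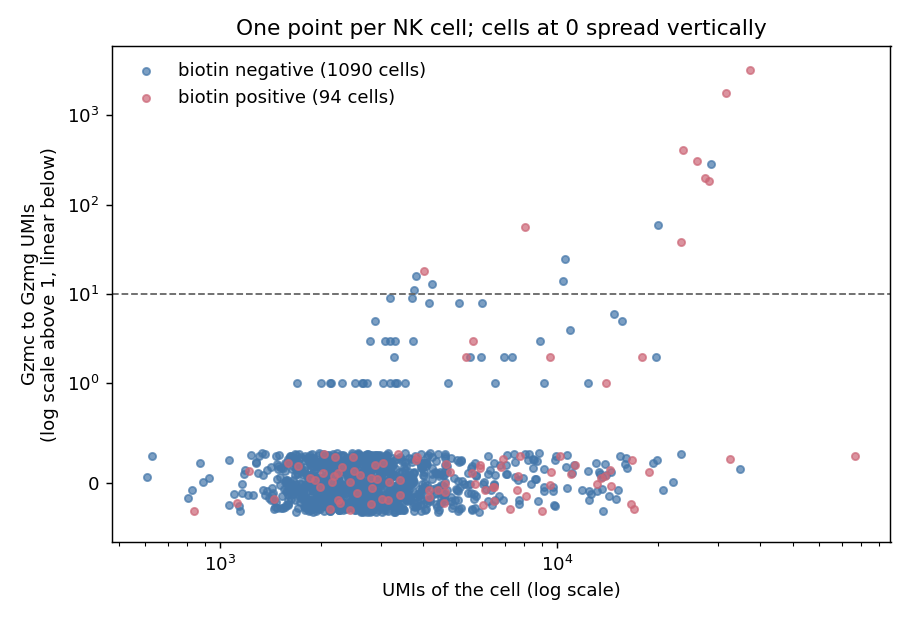
Gzmc to Gzmg UMIs (vertical axis, log scale above 1 and linear below) against all UMIs of the cell (horizontal axis, log scale) for the 94 biotin-positive and 1090 biotin-negative NK cells; each point is a cell, cells at 0 are spread vertically, and the dashed line marks 10 UMIs. The 9 positive and 7 negative cells above it include a lung positive cell with 3195 UMIs.

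The pooled bone library offered samples that had no part in choosing these genes. It used 5′ chemistry and a hashtag per sample, with samples named injection 1 to 6 in each sort (12 in all), and the tag names matched to the sample key by number only. Of 26666 barcodes, 22362 cells were kept and assigned, and 140 met the NK definition. Positive injections 1 to 6 held 0, 6, 0, 0, 3 and 2 NK cells, and negative ones 33, 43, 17, 13, 13 and 10, a share of 0.282 ± 0.484% against 0.783 ± 0.535% (n = 6 each, exact permutation p = 0.126). The positive sample was the lower in 5 of 6 pairs of the same injection number. All 6 NK cells of positive injection 2 held 471 to 2853 UMIs of Gzmc to Gzmg each, 10607 in all, of which 4184 were Gzmf, 2252 Gzmg, 1995 Gzmd, 1471 Gzmc and 705 Gzme. In injection 5, 1 of 3 cells held 646, and in injection 6 neither of the 2 reached 10. Only 1 of 129 negative NK cells reached 10, with 12 UMIs. The NK cells differed in depth, with a median of 30374 UMIs in positive injection 2, 7449 in injection 5 and 2746 in injection 6, against 2081 to 2976 in the negative injections, and the part of depth in these counts was not tested. The mean share of such cells was 44.4 ± 50.9% over the 3 positive injections with NK cells and 0.505 ± 1.24% over 6 negative injections, with an exact permutation p of 0.167 over 84 assignments, which does not pass 0.05. The other 22222 kept cells of the library held 142 UMIs of the 5 genes in all, and 2 of them reached 10.

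**Figure D5:**
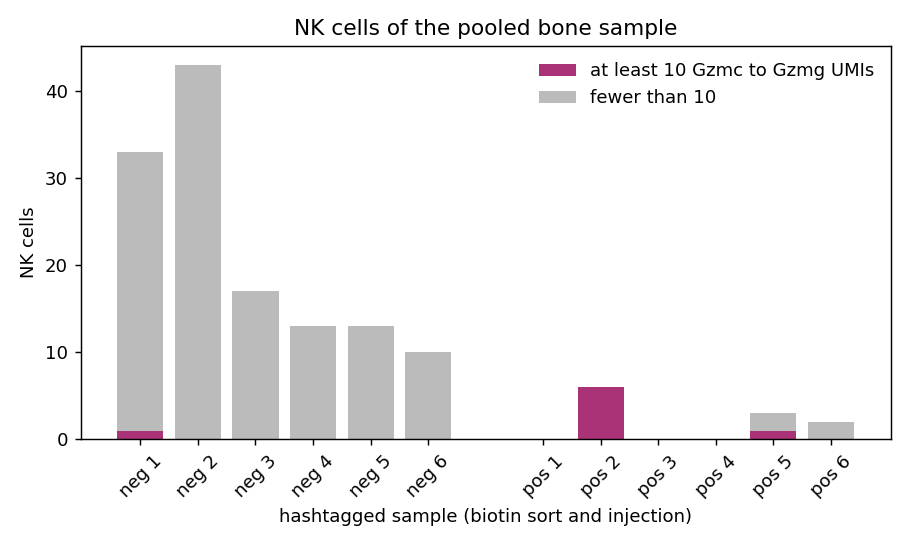
Number of NK cells (bar height) of each hashtagged sample of the pooled bone library, by sort and injection, with those holding at least 10 Gzmc to Gzmg UMIs coloured. All 6 cells of positive injection 2 are coloured, against 1 of 3 in positive injection 5 and 1 of 33 in negative injection 1.

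Tissue differences of NK cells were set against those of Cd3 cells of the same samples, as the interaction of cell type and tissue over 8127 genes, with a term for each sample that pairs its NK and Cd3 sums. edgeR called 0 genes (0%) for liver against bone, 2 (0.0246%) for liver against lung and 1 (0.0123%) for lung against bone. In simulated data of the liver against lung interaction, 57% of genes changed by 2 on the log2 scale were recovered and 5% of those changed by 1. The simulated Cd3 counts came from the NK means, with the same spread for all genes and no effect shared within a sample. These rates need not hold for the real fit. Spry2, a feedback inhibitor of receptor tyrosine kinase signalling, was at 59.8 ± 9.95 CPM in NK cells of bone (SD, n = 3), 163 ± 93.5 of brain, 96.3 ± 52.7 of liver and 179 ± 56.0 of lung (n = 4 each), and at 11.3, 6.43, 14.8 and 3.26 CPM on average in Cd3 cells of the same tissues. Its NK minus Cd3 difference was greater in lung than in bone by 3.46 (SE 0.54, edgeR adjusted p = 0.0101) and smaller in liver than in lung by 2.79, written as -2.79 (SE 0.50, edgeR adjusted p = 0.0496). NK cells exceeded B cells (1.06 to 3.58 CPM) and all other kept cells (3.86 to 6.04 CPM) in Spry2 in each tissue. The B cell receptor subunit Cd79b was also called (-4.01, SE 0.73, edgeR adjusted p = 0.0496), at 4.02 CPM in liver NK cells and 16.5 in lung NK cells, and at 55.7 ± 65.8 and 15.7 ± 11.2 CPM in the Cd3 cells of liver and lung, so that both cell types enter the difference. The NK levels lay far under the 905 and 712 CPM of B cells in liver and lung. These counts fell to 0 for lung against bone without any 1 of bone samples 2 and 3 and lung samples 3 and 4, and to 0 for liver against lung without any 1 of liver samples 2 and 3 and lung samples 1 to 4. With T cells taken by Cd3e, Cd3g and Trac in place of the Cd3 genes, a choice made after seeing the data, 5, 12 and 8 genes were called for liver against bone, liver against lung and lung against bone.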

How the data were processed

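Droplet single-cell RNA libraries of 32 intracardiac samples and 1 pooled bone library were analysed as UMI counts per gene and cell, which the authors deposited unnormalised, as matrices of Cell Ranger (cellranger 6.1.2, and 7.1.0 for the pooled library, per the file headers); the submitters' processing notes also name Seurat and mm10. Samples were already demultiplexed and filtered to cells.

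Cells were kept and NK cells selected by the rules in the report. Members, markers and gene lists were chosen with earlier results of these data known, so list counts are descriptions. No doublets were removed in the values reported; Scrublet (in scanpy 1.11.5) gave scores, and removal of the highest 5% was an alternative. UMIs of NK cells were summed per sample with at least 10 NK cells and tested with edgeR 4.0.16 (TMM scaling, filterByExpr, quasi-likelihood test, Benjamini-Hochberg adjustment over all genes tested) in R 4.3.3, with tissue as the term, tissue plus sort for the sort comparison, and cell type by tissue with a term for each sample for the interaction. DESeq2 1.42.0 was an alternative. Shares were compared with exact two-sided permutation tests in scipy 1.17.1 (70 assignments of 4 against 4 samples), adjusted over 4 tissues. Depth was equalised where stated by thinning to 1500 UMIs per cell, which left out 51 NK cells, and 95% intervals are Wilson's. A floor of 3 counts bounds a share of 0. Hashtags of the pooled library were assigned at 10 or more counts and 3 times the second tag. The scripts were tested on simulated data, in which all genes had the same spread. In the sort comparison 95.0% of genes changed by 2 on the log2 scale were recovered and 20.2% of those changed by 1.

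Genes were to be named when past an adjusted p of 0.05 with a fold of at least 1 on the log2 scale, groups that did not overlap and a level no lower than in the other cells; the rule covered the tissue comparisons and none qualified there, so all genes named, those of the sort and interaction comparisons included, were chosen after seeing values. Alternatives were other marker minimums, a Trac exclusion, scaling, low-count filters, cells per sample, a replicate block and leaving out each sample; 7 were added after seeing the data.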

Additional observations from a re-analysis of the deposited data

Results flagged for a closer look

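Dixon's test marks about 1 in 20 groups by chance only where values are normal and independent, which was not shown here. Of 83 groups of samples tested with it for an outlying member, 21 held one. Liver negative sample 3 accounted for 10 of them: it was highest in Cd7 (1536 CPM), Cxcr6 (314), Gzmb (1622), Gzmc (357), Ifng (602), Il7r (478), Itga1 (305), Tnfsf10 (172) and Xcl1 (5391), and in the share of selected cells with Itga1, Cxcr6 or Tnfsf10 (80.9%). These genes were examined because the sample stood out, so the count of marks is not independent evidence.

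Lung negative sample 1 lay apart in its NK share (14.2%) and in NK cells per 100 Cd3 cells (51.6). Brain positive sample 2 was far above its group in NK cells per 100 Cd3 cells (24.1), on 7 NK cells, and lung positive sample 1 in its NK share (0.911%). In the pooled bone library, positive injection 2 had the outlying NK share (1.24%). Gzmc was outlying in brain negative sample 3 (223 CPM) and lung negative sample 4 (310 CPM), where 1 cell held 284 of the granzyme UMIs. Lung negative sample 3 was outlying in Cxcr6 (6.60 CPM) and Il7r (99.0 CPM), brain negative sample 4 in Il7r (300.4 CPM), and lung negative sample 2 was the lowest in Klra7 (126 CPM).

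Tissue differences in NK cells departed from those in Cd3 cells, by edgeR's interaction test, for Spry2 (3.46 for lung minus bone and -2.79 for liver minus lung) and Cd79b (-4.01 for liver minus lung).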

How the results depend on the processing

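The direction of the NK share difference in liver (-3.62 to -2.89 percentage points) and lung (-5.88 to -1.37) held when each sample was left out, as did bone (-0.891 to -0.0666) and brain (-1.10 to -0.446), whereas NK cells per 100 Cd3 cells in lung ranged from -9.66 to 5.50, in liver from -35.3 to -27.5, in bone from -7.76 to -0.237 and in brain from -6.66 to -0.601. As a share of lymphoid cells, the brain difference was 1.70 (exact permutation p = 0.971).

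Gene counts moved more. Without a filter on low counts, edgeR called 93, 17, 89, 85, 29 and 44 genes for liver-bone, liver-brain, liver-lung, lung-bone, lung-brain and brain-bone, 216 across any tissue, 519 between sorts, and 20, 60 and 83 in the interactions of liver-bone, liver-lung and lung-bone. DESeq2 called 2, 1, 1 and 2 for liver-bone, liver-lung, lung-bone and brain-bone, 11 across any tissue and 8 between sorts. Leaving out samples gave 0 to 10 genes for liver-bone, 0 to 16 for lung-bone, 0 to 15 for brain-bone, 0 to 1 for liver-lung and 0 to 10 for any tissue. The sort count of 16 became 149 with at least 5 cells per sample, 265 with at least 20, 36 without the highest doublet scores, 8 over the genes that pass the filter among negative samples alone, 8 in thinned cells, 0 without Trac cells, 0 with Cd3d left out of the exclusion, 1 without cells of at least 10 Gzmc to Gzmg UMIs, and 4 to 255 with samples left out. Those cells were chosen for these genes, so the loss of the Gzmc difference without them (-1.29, edgeR adjusted p = 0.968) was fixed by the choice. The interaction counts were 0 for liver-lung under RLE scaling, 0 for liver-lung and lung-bone with at least 20 cells, 5, 12 and 8 with T cells by Cd3e, Cd3g and Trac, and 0 to 3 for liver-lung and 0 to 2 for lung-bone with samples left out. The causes were not tested.

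Same-numbered samples correlated in their deviations by -0.06 to 0.29 (median 0.09, 10 of 21 pairs over 0.1), and different-numbered ones by -0.27 to 0.23 (median -0.02, 6 of 63 over 0.1). The numbers were not taken to pair the samples, a choice made because not every same-numbered pair exceeded 0.1. The median was higher among same-numbered pairs, same-numbered samples shared no cell barcodes, and 29 genes were called by replicate number. Any effect shared by samples of a number is left in the spread of the fits without a block. With the replicate block, liver-lung called 2 genes (Cd160 and Tgif1, edgeR adjusted p = 0.0111 each), the sorts 15, and the other tissue comparisons 0; the sign-flip p of the shares was 0.125 in liver and lung, 0.25 in bone and 0.5 in brain, 0.125 being the smallest that 4 pairs can give. In the pooled bone library, pairing by injection number gave an exact sign-flip p of 0.0625 (difference -0.50 percentage points). Positive samples of 0 to 28 NK cells limit every comparison of the sorts.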

Other observations

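The 29 genes that edgeR called by replicate number, with tissue in the model, included the mitochondrial genes mt-Atp6 (-1.28 for replicate 3 minus 1 on the log2 scale, adjusted p = 0.00361 by edgeR) and mt-Co2 (-0.94), the ribosomal protein genes Rps27 (0.88) and Rpl38 (0.81), and the immunoglobulin gene Igkc (3.90). Itga1 (3.13) and Cxcr6 (3.88), which mark ILC1, and Gzmb (0.92) were also among them. Outside the liver, Itga1 was at 69.6 CPM in bone, 137 in brain and 39.6 in lung in the biotin-negative NK cells of replicate 3, and Cxcr6 at 92.8, 68.5 and 6.60 CPM, on 1 to 8 UMIs a sample. Ncr1, a gene of the definition, was lower in replicate 2 than in replicate 1 by 1.81 on the log2 scale, written as -1.81. Replicate number and any handling shared by its samples cannot be told apart.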
